A study of Mus musculus with 4 samples.

Results

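The genes described here are 49 genes of DNA replication and of the G1/S step of the cell cycle, read in lungs of Fgf8 hypomorph and of wild type mouse fetuses at E18.5, shortly before birth. They are genes for origin licensing, origin firing, the replication fork, deoxynucleotide supply, the G1/S cyclins and E2F regulators, and the copying of DNA methylation. The list does not hold every array gene of these roles. Of 80 other tested genes of the pathway, described further below, 42 were higher in hypomorph lungs and 9 lower. By the same test 13.7% of all genes were higher and 13.1% lower. The 49 genes were chosen by name, and all of their probes were kept, giving 71 probes of the 41174 on the array. Of the 49 genes, 48 could be tested, beside 20081 genes tested in all. Each of 4 arrays carried 1 pool of lungs from Fgf8 hypomorphs (Fgf8H/-) labelled with Cy5 and 1 pool from wild type littermates (Fgf8+/+) labelled with Cy3. A pool held 3 lungs, trimmed of large airways and vessels. Both genotypes were on the mixed background given as c57nl7/sv129. The symbol is that of a hypomorphic allele over a null allele carried by the whole animal, and no Cre driver is named. What the letters AP/N in the sample titles mean is not stated, and the groups here follow the labelled genotypes. All hypomorph pools carried the same dye, on 1 slide and in 1 scan, so dye and genotype cannot be told apart in any value below.

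DNA is copied once per cell cycle from origins that are prepared in G1. The origin recognition complex, Cdc6 and Cdt1 load the ring-shaped Mcm2-7 helicase onto DNA, a step called licensing, and the Cdc7 kinase with its activator Dbf4 helps to fire it at the start of S phase. Cyclin D and cyclin E kinases inactivate the retinoblastoma family of proteins, which frees E2F factors to activate many of the genes named here. Messages of these genes are commonly used as a readout of cycling cells, and in the fetal lung both the epithelium and the mesenchyme hold such cells.

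Of 43379 spots per array, 32731 to 34519 were well above background in the hypomorph channel and 32491 to 33744 in the wild type channel. Spike-in transcripts of known ratio gave observed against stated slopes of 0.69 to 0.72, so their ratios were compressed. Whether the folds here, which have their own background correction and normalization, are compressed as much was not tested. Fgf8 itself had log2 signals of 7.96, 8.27, 8.14 and 8.13 in hypomorph pools, against 8.26, 8.50, 8.23 and 8.21 in wild type pools, a mean log2 ratio of -0.18 ± 0.11 (SD, n = 4, limma adjusted p = 0.0572). It was below 0 on all 4 arrays without passing the test. Its position against the changed part of the gene was not checked here, so it does not test the labels. Each pool mixes all cells of the lung, so a change in the number of cycling cells and a change in message per cell cannot be told apart. The p-values measure the spread between these 4 pairs of pools.

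The hypomorph pools had higher signals for most of these genes. By the brightest tested probe of each gene, 41 of the 48 genes were higher in hypomorph lungs, 7 gave no call and 0 were lower (limma on log2 ratios, adjusted p under 0.05). Over all genes tested, 26.8% were called, 13.7% as higher and 13.1% as lower. At an unadjusted p under 0.05, still 0 of the 48 were lower and 42 were higher (limma). The share of all genes at that threshold was not counted. The median log2 ratio of the 48 genes was 0.40, a fold of 1.32, and that of all genes was 0.00. Array by array, the median of the 48 was 0.43, 0.44, 0.41 and 0.35, and that of all genes was -0.02, 0.01, 0.00 and 0.00. Loess normalization holds the bulk of genes near 0 on each array, so the medians of all genes are set by it. The size was modest: 7 of the 48 were called and at least 1.5-fold higher, against 0.832% of all genes. In 33 of the 48 genes each hypomorph pool had a higher level than each wild type pool, as did 8.19% of all genes. In 42 of the 48 the ratio was above 0 on each array that gave a value, against 26.7% of all genes. Sizes given below for a gene are its mean log2 ratio of hypomorph over wild type, unless a sentence names another quantity.

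**Figure D1:**
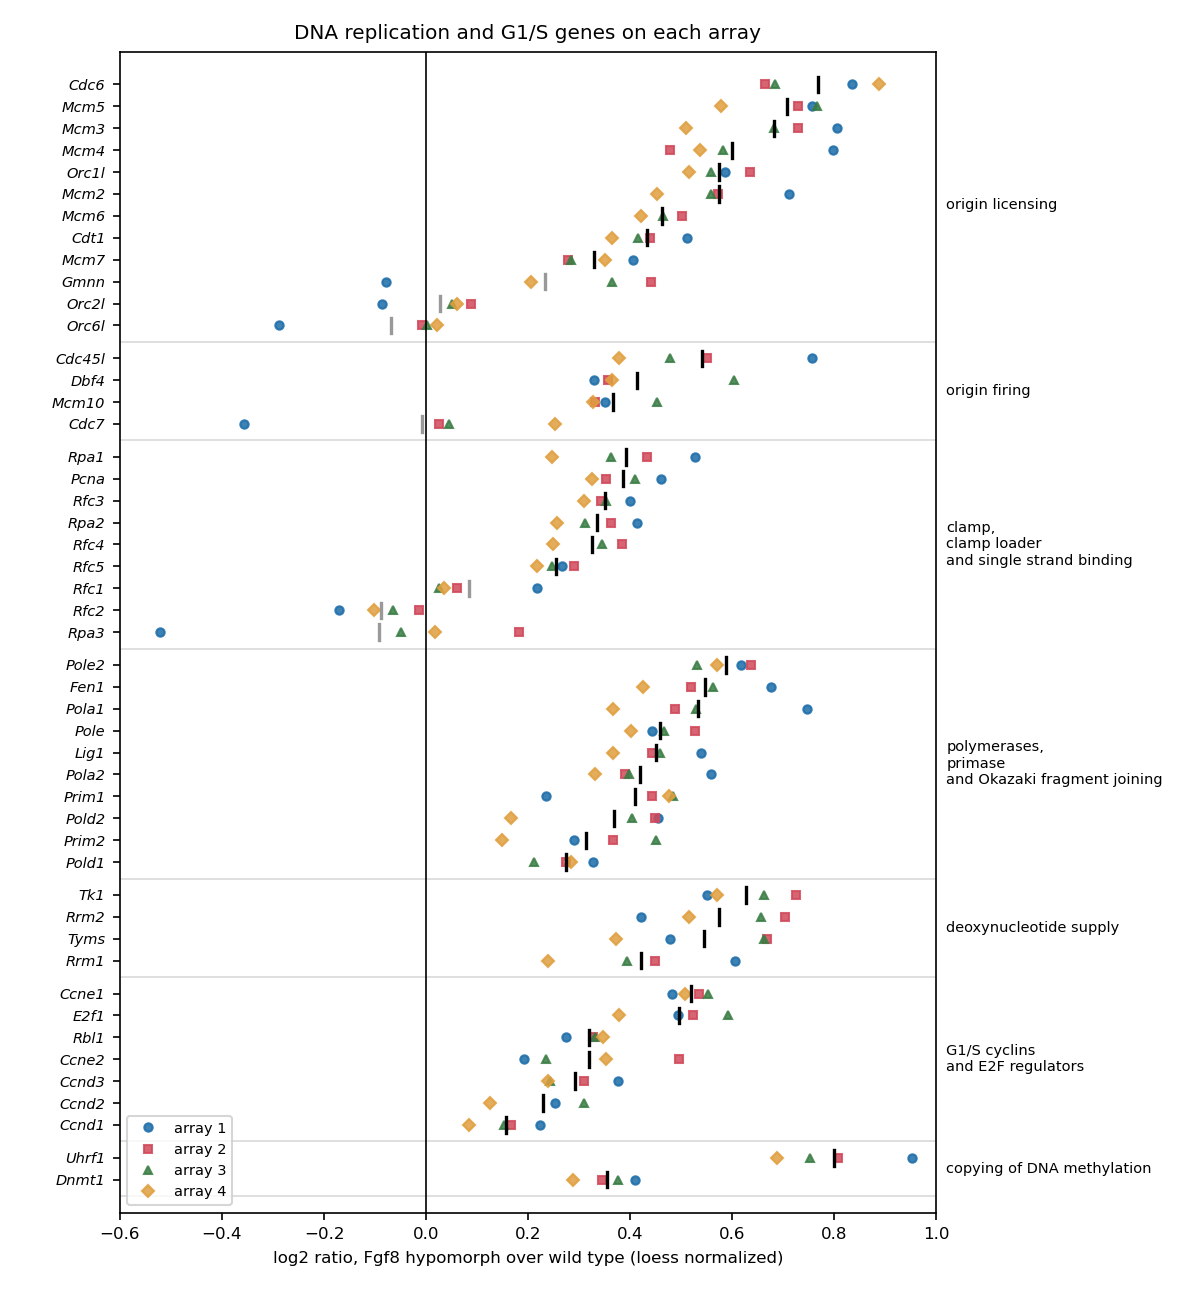
Log2 ratio of hypomorph over wild type on each of the 4 arrays for the 48 tested genes, grouped by role, with vertical ticks at the mean (black where called, grey where not). Most genes lie right of 0 on all arrays, and the points furthest to the left are those of array 1 for Rpa3, Cdc7 and Orc6l.

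A smaller share of markers of the cell types of the lung and its neighbours than of the replication genes was called as higher. Their part in these results was not tested. Beside the counts below, 13.7% of all genes tested were called as higher and 13.1% as lower. Higher and lower calls were 2 and 1 of 10 for lung epithelium, 0 and 1 of 10 for mesenchyme, 1 and 4 of 8 for endothelium, and 0 and 5 of 9 for macrophages and leukocytes (limma). Every probe of these 4 lists was well above background on at least 1 array. Some listed markers were on the array but not tested, and stand outside the counts. They were Sftpc, Sftpd and Scgb1a1 of epithelium, Pdgfrb of mesenchyme and Lyzs of macrophages, and for erythroid precursors Hba-a1, Hbb-b1 and Rhag. Sums took only the probes with a value on all 4 arrays, 6 for endothelium and 8 for the erythroid precursors below. Summed endothelium signals were 17.04 to 17.25 (log2) in hypomorph pools, below the 17.41 to 17.46 of wild type pools. That sum leaves out Emcn, the brightest of its list, at a log2 ratio of -0.08, and Tie1, at 0.13, neither of them called. Summed macrophage and leukocyte signals were 13.95 to 14.09 in hypomorph and 14.07 to 14.39 in wild type pools. Erythroid precursors, which replicate their DNA, had 0 markers higher and 1 lower of 9, with sums of 14.87 to 15.13 in hypomorph and 15.02 to 15.49 in wild type pools. Thymocytes, another dividing type, had 2 higher of 10, namely Lck and Ptcra, with sums of 10.99 to 11.18 in hypomorph and 10.88 to 11.08 in wild type pools. Of the 20 thymocyte probes on the array, 6 were not well above background on any array. Among the tested ones Ptcra was dim, at a log2 brightness of 6.7. Cd4, Cd8a, Cd3d, Cd3g, Rag1 and Dntt, none of them called, lay at 6.3 to 6.8. The brightest were Cd8b1 at 9.5, not called, and Lck at 9.0. Heart muscle had 0 higher and 1 lower of 8, and its median ratio differed between arrays, at 0.09, 0.03, -0.42 and -0.72. Liver had 0 of 4 called and airway cartilage 1 higher of 5.

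Of the 12 origin licensing genes 9 were higher, and their median log2 ratio of 0.52 was the highest among the groups of 9 or more genes. Cdc6, the loader of the helicase, had log2 signals of 9.32, 8.97, 9.18 and 9.26 in hypomorph pools, against 8.48, 8.30, 8.49 and 8.37 in wild type pools. Every hypomorph pool lay above every wild type pool, and the mean log2 ratio was 0.77 ± 0.11 (SD, n = 4), a fold of 1.70 (limma adjusted p = 0.00139). The Cdc6 probe lies at chromosome 11, 98739945 to 98740004 (build mm8). Mcm5, a subunit of the helicase, had log2 signals of 12.77, 12.58, 12.87 and 12.66 in hypomorph pools, against 12.01, 11.85, 12.11 and 12.09 in wild type pools. Its pools did not overlap either, with a mean log2 ratio of 0.71 ± 0.09 (SD, n = 4) and a fold of 1.63 (limma adjusted p = 0.00137).

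All 6 subunits of the Mcm2-7 helicase rose, by 0.33 to 0.71. After Mcm5 came Mcm3 at 0.68 ± 0.13 (SD, n = 4), Mcm4 at 0.60, Mcm2 at 0.57, Mcm6 at 0.46 on the 3 arrays with a value, and Mcm7 at 0.33 ± 0.06 (SD, n = 4). The Mcm7 ratios of 0.41, 0.28, 0.29 and 0.35 all lay below the lowest Mcm5 ratio, 0.58, and this difference was not tested. Without replicate 2 the Mcm6 call was lost (limma adjusted p = 0.0539). Orc1l, the large subunit of the origin recognition complex, rose by 0.57 ± 0.05 (SD, n = 4), although its pools overlapped. The licensing factor Cdt1 rose by 0.43 ± 0.06 (SD, n = 4).

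The other subunits of the origin recognition complex on the list gave no call. Orc2l had log2 ratios of -0.09, 0.09, 0.05 and 0.06, a mean of 0.03 ± 0.08 (SD, n = 4). Orc6l had log2 signals of 12.94, 13.22, 12.93 and 12.96 in hypomorph pools, against 13.23, 13.23, 12.93 and 12.94 in wild type pools. Its ratios were -0.29, -0.01, 0.00 and 0.02, so that 3 arrays read close to 0 and array 1 stood below them (limma adjusted p = 0.453). Gmnn, or geminin, the inhibitor that holds Cdt1, had ratios of -0.08, 0.44, 0.36 and 0.21, a mean of 0.23 ± 0.23 (SD, n = 4) (limma adjusted p = 0.0986). Without replicate 1 the geminin mean was 0.34 and passed the test (limma adjusted p = 0.00957).

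Promoters are printed for the licensing genes because most of them hold the short words that E2F factors bind, and because E2F activity is the step after the G1/S cyclins. The windows run from 250 bases before to 50 bases after the start of a gene in RefSeq (build GRCm38.p6), and 41 of the 49 genes had one. The search took 4 words on both strands, TTTGGCGC, TTTCCCGC, TTTCGCGC and TTTGCCGC, and 2 words may overlap. At least 1 word stood in 16 of the 41 genes (39.0%), against 704 of 27025 genes in the whole table (2.6%). By role, 7 of 10 licensing genes, 4 of 8 polymerase and fork-joining genes and 2 of 2 methylation-copying genes held one. It stood in 2 of 5 G1/S genes and 1 of 8 clamp genes, and in 0 of 4 firing and 0 of 4 deoxynucleotide genes. Where a gene had several starts, as 10 did, a word at any of them counted. Among genes with a window it was in 15 of the 35 that were higher, in 0 of the 5 that were not called, and in E2f2, which was not tested. This split by call was not tested, and neither was any part of E2F factors in the higher signals. The letters CCAAT, bound by NF-Y, stood in 25 of the 41 (61.0%), against 41.1% of all genes. A match is only a match of letters within this window.
The windows of 5 licensing genes that rose, of the clamp loader gene Rfc3 and of Orc6l (Orc6) follow, and were chosen after the matches were seen, with E2F words in capitals, written as read on the strand of the gene.
Cdc6 promoter (chr11:98907901-98908200, plus strand): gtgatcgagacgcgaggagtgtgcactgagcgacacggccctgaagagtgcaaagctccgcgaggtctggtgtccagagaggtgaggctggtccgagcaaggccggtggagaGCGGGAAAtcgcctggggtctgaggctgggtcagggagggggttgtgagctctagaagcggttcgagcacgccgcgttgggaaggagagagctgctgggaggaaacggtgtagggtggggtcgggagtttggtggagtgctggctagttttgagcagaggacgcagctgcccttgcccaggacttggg
Mcm5 promoter (chr8:75109259-75109558, plus strand): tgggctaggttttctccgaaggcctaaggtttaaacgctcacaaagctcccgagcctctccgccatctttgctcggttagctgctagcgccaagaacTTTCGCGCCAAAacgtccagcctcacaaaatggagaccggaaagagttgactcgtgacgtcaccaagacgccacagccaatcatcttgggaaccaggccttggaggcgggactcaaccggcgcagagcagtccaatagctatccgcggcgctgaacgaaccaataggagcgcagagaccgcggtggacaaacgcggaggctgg
Mcm3 promoter (chr1:20820263-20820562, minus strand): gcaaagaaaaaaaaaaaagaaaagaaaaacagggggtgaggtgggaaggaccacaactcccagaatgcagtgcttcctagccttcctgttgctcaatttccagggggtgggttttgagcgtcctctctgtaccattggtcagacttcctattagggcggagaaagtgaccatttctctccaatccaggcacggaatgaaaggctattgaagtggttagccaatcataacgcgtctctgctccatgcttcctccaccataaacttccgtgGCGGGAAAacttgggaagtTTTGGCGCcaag
Mcm6 promoter (chr1:128359656-128359955, minus strand): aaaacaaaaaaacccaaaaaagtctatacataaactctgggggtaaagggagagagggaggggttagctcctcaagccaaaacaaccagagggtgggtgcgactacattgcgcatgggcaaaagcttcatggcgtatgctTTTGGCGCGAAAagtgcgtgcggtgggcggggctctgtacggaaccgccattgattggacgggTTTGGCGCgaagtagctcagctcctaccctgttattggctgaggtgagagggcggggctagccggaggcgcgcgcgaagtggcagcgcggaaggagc
Mcm2 promoter (chr6:88898731-88899030, minus strand): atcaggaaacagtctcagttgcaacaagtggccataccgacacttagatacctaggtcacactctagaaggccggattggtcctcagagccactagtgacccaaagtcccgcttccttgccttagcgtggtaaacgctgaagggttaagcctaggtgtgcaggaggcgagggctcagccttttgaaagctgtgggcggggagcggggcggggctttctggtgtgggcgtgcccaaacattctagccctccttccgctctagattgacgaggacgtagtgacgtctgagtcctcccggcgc
Rfc3 promoter (chr5:151651159-151651458, minus strand): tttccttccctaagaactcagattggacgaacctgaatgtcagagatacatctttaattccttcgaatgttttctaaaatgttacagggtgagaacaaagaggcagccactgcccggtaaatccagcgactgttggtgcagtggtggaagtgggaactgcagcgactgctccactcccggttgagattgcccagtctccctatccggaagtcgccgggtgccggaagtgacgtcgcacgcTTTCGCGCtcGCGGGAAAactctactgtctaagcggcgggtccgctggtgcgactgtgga
Orc6 promoter (chr8:85299382-85299681, plus strand): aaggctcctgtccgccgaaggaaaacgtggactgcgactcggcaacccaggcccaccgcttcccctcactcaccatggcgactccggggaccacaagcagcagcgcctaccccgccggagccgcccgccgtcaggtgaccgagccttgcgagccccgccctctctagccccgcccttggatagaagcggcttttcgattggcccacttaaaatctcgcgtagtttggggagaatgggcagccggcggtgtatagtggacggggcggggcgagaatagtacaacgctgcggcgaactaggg
In the Mcm5 and Mcm6 windows a pair of words on opposite strands overlaps, Mcm3 carries both of its words after the start, and the Mcm2 and Orc6 windows have none.

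Of the origin firing genes, 3 of 4 rose, with a median log2 ratio of 0.39. Cdc45l, which joins the helicase to make it active, had log2 signals of 9.70, 9.37, 9.71 and 9.50 in hypomorph pools, against 8.95, 8.82, 9.23 and 9.12 in wild type pools. The pools did not overlap, and the mean log2 ratio was 0.54 ± 0.16 (SD, n = 4) (limma adjusted p = 0.0053). Dbf4, the activator of the Cdc7 kinase, rose by 0.41 ± 0.13 (SD, n = 4), and Mcm10, which helps to open the helicase, by 0.37 ± 0.06 (SD, n = 4). The kinase Cdc7 itself had log2 signals of 11.41, 11.93, 11.42 and 11.32 in hypomorph pools, against 11.77, 11.90, 11.38 and 11.07 in wild type pools. Its ratios of -0.36, 0.03, 0.04 and 0.25 fell on both sides of 0, the widest spread of the firing genes, with a mean of -0.01 ± 0.25 (SD, n = 4) (limma adjusted p = 0.958). Another Cdc7 probe gave 0.07 and a dim one 0.08, and none of the 3 was called.

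In the group of the sliding clamp, its loader and the single strand binding protein, 6 of 9 genes rose, with a median log2 ratio of 0.33. Pcna, the clamp that holds polymerases on DNA, had log2 signals of 14.78, 14.65, 14.77 and 14.70 in hypomorph pools, against 14.32, 14.30, 14.36 and 14.37 in wild type pools. Its pools were well apart, at 0.39 ± 0.06 (SD, n = 4) (limma adjusted p = 0.00402), and its 6 to 10 usable spots varied by an SD of 0.021 to 0.045 within an array. Rpa1, the large subunit of replication protein A, had log2 signals of 13.79, 13.67, 13.79 and 13.75 in hypomorph pools, against 13.26, 13.24, 13.42 and 13.51 in wild type pools. Its mean log2 ratio was 0.39 ± 0.12 (SD, n = 4) (limma adjusted p = 0.00742), and without replicate 2 it missed the test at 0.054. The middle subunit Rpa2 rose by 0.34 ± 0.07 (SD, n = 4). The small subunit Rpa3 did not follow: it had log2 signals of 12.78, 13.49, 12.48 and 12.41 in hypomorph pools, against 13.30, 13.31, 12.52 and 12.39 in wild type pools. Its ratios were -0.52, 0.18, -0.05 and 0.02, a mean of -0.09 ± 0.30 (SD, n = 4) (limma adjusted p = 0.561), with 2 arrays on each side of 0.

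The clamp loader was uneven, with 3 of 5 subunits called. Rfc3 rose by 0.35 ± 0.04 (SD, n = 4), Rfc4 by 0.33 ± 0.07 (SD, n = 3) and Rfc5 by 0.26 ± 0.03 (SD, n = 4). The large subunit Rfc1 had ratios of 0.22, 0.06, 0.03 and 0.04, all above 0 but a mean of only 0.09 ± 0.09 (SD, n = 4) (limma adjusted p = 0.242). Rfc2 had ratios of -0.17, -0.01, -0.07 and -0.10, all below 0, with a mean of -0.09 ± 0.07 (SD, n = 4) (limma adjusted p = 0.19). The calls of Rfc4 and Rfc5 were lost without replicate 2 (adjusted p = 0.0997 and 0.0648) and without replicate 3 (0.0829 and 0.053).

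All 10 genes for polymerases, primase and the joining of Okazaki fragments rose, with a median log2 ratio of 0.44. Pole2, a subunit of the leading strand polymerase epsilon, had log2 signals of 10.77, 10.48, 10.36 and 10.29 in hypomorph pools, against 10.16, 9.84, 9.83 and 9.72 in wild type pools. The pools did not overlap, and the mean log2 ratio was 0.59 ± 0.05 (SD, n = 4) (limma adjusted p = 0.00143). Its catalytic partner Pole rose by 0.46. Fen1, which trims the flaps of Okazaki fragments, rose by 0.55, and Lig1, the ligase that seals them, by 0.45. In the priming complex, the catalytic subunit Pola1 rose by 0.53, Pola2 by 0.42, Prim1 by 0.41 and Prim2 by 0.31. The lagging strand polymerase delta had smaller ratios, with Pold2 at 0.37 and Pold1 at 0.27. Pold1, its catalytic subunit, had log2 signals of 12.24, 12.30, 12.39 and 12.39 in hypomorph pools, against 11.91, 12.03, 12.18 and 12.11 in wild type pools, and the mean log2 ratio was 0.27 ± 0.05 (SD, n = 4) (limma adjusted p = 0.00894). The Pold1 pools lay close but did not overlap. Without replicate 2 the calls of Pold1 (adjusted p = 0.0591), Pold2 (0.0691), Prim1 (0.0506) and Prim2 (0.0856) were lost, and without replicate 3 those of Pold2 (0.0554) and Prim2 (0.0674).

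All 4 genes of deoxynucleotide supply rose, with a median log2 ratio of 0.56. Tk1, the thymidine kinase of S phase, had log2 signals of 12.00, 12.09, 12.10 and 11.84 in hypomorph pools, against 11.45, 11.36, 11.44 and 11.27 in wild type pools. Each hypomorph pool stood above each wild type pool, with a mean log2 ratio of 0.63 ± 0.08 (SD, n = 4) and a fold of 1.54 (limma adjusted p = 0.00159). Ribonucleotide reductase, which makes deoxynucleotides, has a stable large subunit, Rrm1, and a small subunit, Rrm2, that is made in S phase. Rrm2 rose by 0.57 ± 0.13 (SD, n = 4). Rrm1 had log2 signals of 13.15, 12.95, 13.30 and 13.12 in hypomorph pools, against 12.55, 12.50, 12.91 and 12.88 in wild type pools, without overlap, and a mean log2 ratio of 0.42 ± 0.15 (SD, n = 4) (limma adjusted p = 0.00902, and 0.0604 without replicate 2). Thymidylate synthase, Tyms, rose by 0.55 ± 0.14 (SD, n = 4).

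All 7 tested G1/S cyclins and E2F regulators rose, with the lower median of 0.32. Ccne1, or cyclin E1, had log2 signals of 11.69, 11.53, 11.60 and 11.48 in hypomorph pools, against 11.21, 11.00, 11.05 and 10.98 in wild type pools. The 4 ratios of 0.48, 0.54, 0.55 and 0.51 were close together, at 0.52 ± 0.03 (SD, n = 4) (limma adjusted p = 0.00162). Cyclin E2 (Ccne2) rose by 0.32 ± 0.14 (SD, n = 4), and its call was lost without replicate 2, 3 or 4 (adjusted p = 0.072, 0.0539 and 0.0551). Rbl1, a retinoblastoma family protein also called p107 and itself an E2F target, rose by 0.32 ± 0.03 (SD, n = 4). E2f1 rose by 0.50 ± 0.09 (SD, n = 4) by its brightest probe.

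The D cyclins answer to growth signals before E2F is active, and Ccnd1 and Ccnd2 had the 2 smallest ratios of the called genes. Ccnd1, or cyclin D1, had log2 signals of 13.82, 13.58, 13.84 and 13.74 in hypomorph pools, against 13.60, 13.41, 13.69 and 13.66 in wild type pools. The pools overlapped, although the ratio was above 0 on each array, at 0.16 ± 0.06 (SD, n = 4) (limma adjusted p = 0.0459). Its 9 or 10 usable spots had an SD of 0.015 to 0.037 within an array. Ccnd3 stood at 0.29 ± 0.06 (SD, n = 4) and Ccnd2 at 0.23 ± 0.09 (SD, n = 3). The calls of Ccnd1 and Ccnd2 each failed under 8 of 16 alternatives, where the processed signals and the deposited table, which hold equal values, count separately. Among them was each array left out in turn, with limma adjusted p of 0.0700 to 0.156 for Ccnd1 and 0.0658 to 0.187 for Ccnd2. The call of Ccnd3 failed without replicate 2 (adjusted p = 0.0604).

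E2f2, an activating E2F, could not be tested. Its probe was bright on all arrays, at a log2 brightness of 14.7, but its spot was marked as an outlier on 2 arrays. With marked spots kept, its log2 ratios were -0.25, -0.20, -0.07 and -0.11, a mean of -0.16 ± 0.08 (SD, n = 4, limma adjusted p = 0.0554). The 7 tested genes of its group had no ratio below 0 on any array by their brightest probes.

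Both genes that copy DNA methylation onto new strands rose. Uhrf1, which recognises hemimethylated DNA behind the fork, had log2 signals of 13.00, 12.83, 13.01 and 12.77 in hypomorph pools, against 12.05, 12.03, 12.25 and 12.09 in wild type pools. It had the highest mean log2 ratio of the 48 genes, 0.80 ± 0.11 (SD, n = 4), a fold of 1.74 (limma adjusted p = 0.00135), and the pools were far apart. Dnmt1, the methyltransferase that Uhrf1 recruits, had log2 signals of 11.73, 11.64, 12.01 and 12.01 in hypomorph pools, against 11.32, 11.29, 11.64 and 11.72 in wild type pools. The levels overlapped between arrays while the ratio was above 0 on each, at 0.35 ± 0.05 (SD, n = 4) (limma adjusted p = 0.00477).

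The 7 genes without a call did not share 1 role. In the licensing group they were 3, namely Orc2l, Orc6l and the inhibitor Gmnn. Another 1 fires origins, and 3 belong to the clamp loader and replication protein A. For Cdc7, Orc6l and Rpa3 the 3 highest of the 8 pools were the same ones, both pools of array 2 and the wild type pool of array 1. The uncalled Orc2l, Gmnn, Rfc1 and Rfc2 had another set of highest pools. The dimmer tested probe of Dbf4, a gene called by its brightest probe, had the same 3. Whether this bears on the missing calls was not tested. On array 1 the spread of ratios was also wider over all genes, with an SD of 0.34 against 0.22 to 0.25 on the other arrays. Over the 48 genes that SD was 0.32 on array 1 and 0.19 to 0.21 on the others. With median centring in place of loess, Orc6l, Cdc7, Rfc2 and Rpa3 turned above 0, while the median of all genes moved to 0.13.

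**Figure D2:**
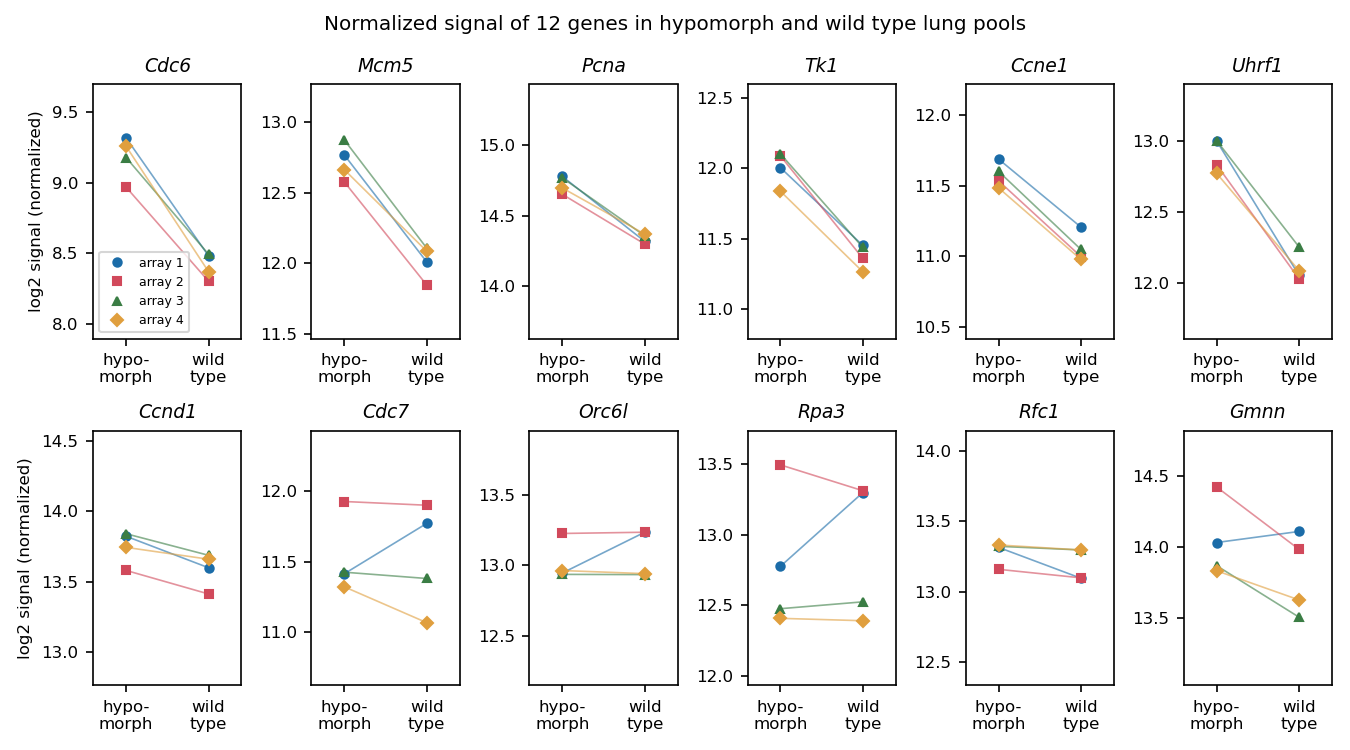
Normalized log2 signal of 12 genes in hypomorph and wild type pools, with a line joining the 2 pools of an array. The top row shows genes that slope downward from hypomorph to wild type on every array. The bottom row shows Ccnd1, with a shallow slope, and 5 genes without a call. Among these the lines of Cdc7, Orc6l, Rpa3 and Gmnn do not share 1 direction, and those of Rfc1 all slope downward, mostly slightly.

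Where a gene had more than 1 tested probe, the probes were set against each other on each array. There were 14 such pairs over 11 of the genes, and 6 pairs differed (limma on the difference of log2 ratios, adjusted p under 0.05), against 16.6% of the 9927 pairs over all genes. E2f1 had the widest difference between probes of comparable brightness. The bright E2f1 probe (chromosome 2, 154251709 to 154251768, mm8) had ratios of 0.49, 0.52, 0.59 and 0.38. The other probe, at 154251447 to 154251506 and printed 10 times, had ratios of 0.15, 0.02, 0.01 and 0.04, a mean of 0.05 ± 0.06 (SD, n = 4). Its spots varied by an SD of 0.033 to 0.069 within an array. The difference was -0.45 ± 0.12 (SD, n = 4, limma adjusted p = 0.0167), so E2f1 read as higher by 1 probe and near 0 by the other. This was also the 1 pair called under the processed signals.

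Ccnd2 likewise rested on 1 of 3 bright probes. The brightest, which gave values on 3 arrays, read 0.25, 0.31 and 0.13. The others read 0.03, -0.02, 0.05 and -0.07 and -0.05, 0.01, 0.10 and 0.02 on 4 arrays, means of 0.00 and 0.02, and the first of these differed from the brightest (limma adjusted p = 0.0433). Rfc2 went the other way: its brightest probe read -0.17, -0.01, -0.07 and -0.10 and the other 0.04, 0.25, 0.17 and 0.06, a difference of 0.22 (limma adjusted p = 0.027), with neither probe called.

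The remaining differences involved dimmer probes. For Dbf4 the dimmer probe read -0.20, 0.21, 0.32 and 0.10, against 0.33, 0.36, 0.60 and 0.36 for the bright one (limma adjusted p = 0.0403). For Pola2, whose dimmer probe had a log2 brightness of 6.8, the ratios were 0.04, 0.15, -0.07 and -0.10, against 0.56, 0.39, 0.40 and 0.33 (limma adjusted p = 0.0186). Tyms had a probe at a log2 brightness of 6.5 with ratios of -0.17, 0.17, -0.09 and 0.04, against 0.48, 0.67, 0.66 and 0.37 for the brightest (limma adjusted p = 0.0186). Its other bright probe read 0.50, 0.57 and 0.34 on 3 arrays and differed from the brightest by -0.03 ± 0.06.

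Other pairs did not pass the test. The pair of Pold1 probes differed by 0.00 ± 0.05, the pair of Rpa2 by -0.07 ± 0.04 and the pair of Ccne2 by 0.03 ± 0.13 (SD, n = 4 each). For Ccne1 the dimmer probe, at a log2 brightness of 7.1, was itself called higher, at 0.27 ± 0.13 (SD, n = 4, limma adjusted p = 0.0242). It was lower than the bright one on all 4 arrays, with a difference of -0.25 ± 0.15 (SD, n = 4, limma adjusted p = 0.057). That difference passed the test without replicate 1 (adjusted p = 0.0146), with scale normalization (0.0469) and with median centring (0.005). Apart from the E2f2 probe, described above, 3 probes were left out for marked spots. Once those spots were kept, that of Mcm3 gave 0.69 ± 0.11 and that of Uhrf1 0.76 ± 0.08 (SD, n = 4), close to the tested probes. The left-out Cdc6 probe, slightly brighter than the tested one at 8.98 against 8.80 (log2), gave 0.64, 0.54, 0.52 and 0.59, a mean of 0.57 ± 0.05 (SD, n = 4, limma adjusted p = 0.00123). It lay below the tested Cdc6 probe on every array. Further probes of Pole, Dbf4, Pola2 and Rrm1 were not well above background on any array, and that of Mcm4 only in 1 hypomorph pool.

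**Figure D3:**
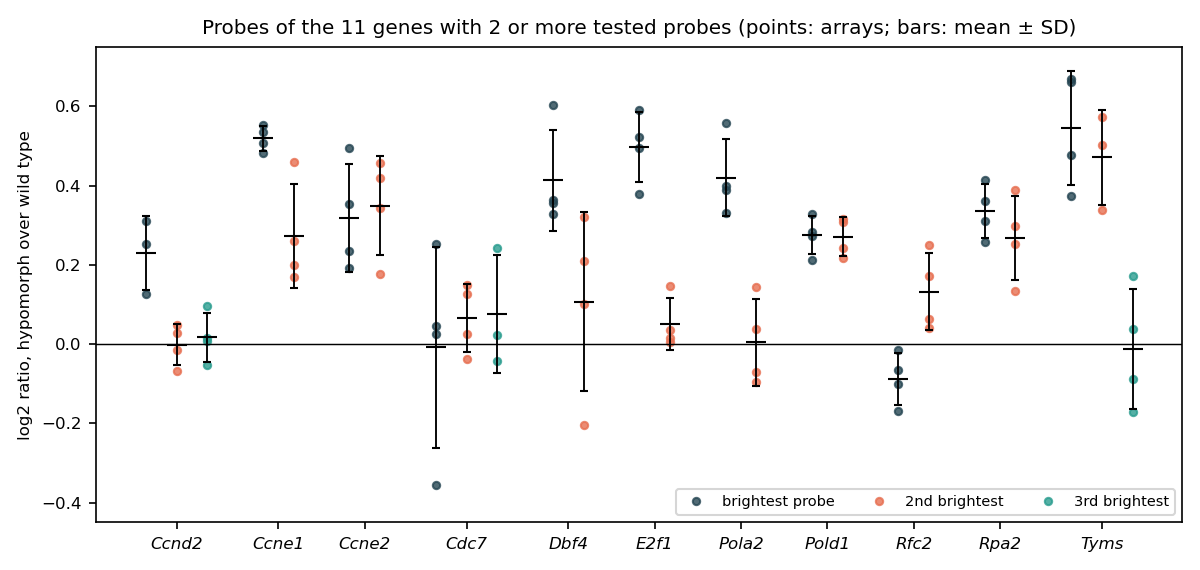
Log2 ratios of hypomorph over wild type for each tested probe of the 11 genes with 2 or more tested probes, as points for arrays and bars for mean ± SD. The probes of Pold1, Rpa2 and Ccne2 lie together, while those of E2f1, Pola2 and Tyms include 1 near 0 and 1 above 0.4.

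Of 80 other genes of the pathway that were tested, 42 were higher and 9 lower, with a median log2 ratio of 0.20. Over all genes tested, 13.7% were called as higher and 13.1% as lower, so the lower calls were near the share over all genes. At forks and origins 13 of 26 were higher and 1 lower. These included the checkpoint mediator Clspn at 0.61, the topoisomerase Top2a at 0.60, the helicase subunit Gins1 at 0.58 and the fork protein Wdhd1 at 0.50. Orc4l, another subunit of the origin recognition complex, was lower, at -0.39. In nucleotide supply 10 of 17 were higher, among them the deoxynucleoside kinase Dck at 0.52 and the purine synthesis enzymes Atic at 0.42 and Impdh2 at 0.41. The 2 lower ones were Samhd1 at -0.50, which breaks deoxynucleotides down, and Ctps at -0.26, which makes cytidine nucleotides. Of 11 chromatin assembly genes 7 were higher and 0 lower (limma), with the histone chaperone subunits Chaf1b at 0.61 and Chaf1a at 0.51, Asf1b at 0.49 and the remodeller Hells at 0.36.

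Among 26 other G1/S regulators 12 were higher and 6 lower. The higher ones included the late repressors E2f7 at 0.55 and E2f8 at 0.53, cyclin A2 (Ccna2) at 0.52, and Skp2, which targets the inhibitor p27 for destruction, at 0.41. The cyclin D kinase Cdk4 was higher at 0.33, and the cyclin E kinase Cdk2, at 0.15, and Myc, at 0.14, were not called. The 6 lower ones were the retinoblastoma genes Rb1 at -0.37 and Rbl2 at -0.17, the repressor E2f5 at -0.23, and the kinase inhibitors Cdkn1a (p21) at -0.30, Cdkn1b (p27) at -0.26 and Cdkn2b (p15) at -0.38. Another kinase inhibitor of the list, Cdkn2c (p18), was higher at 0.38, and Cdkn2d, at -0.12, and Cdkn2a, at 0.03, were not called. Over the whole set of 80 other pathway genes, the lower calls numbered 4 under the processed signals. Without replicate 2 there were 22 higher and 1 lower, and without replicate 3 there were 27 higher and 2 lower.

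Mitosis genes were set beside the replication genes because they mark a later stage of the same cycle. All 24 tested were higher, with a median log2 ratio of 0.51 and array medians of 0.63, 0.46, 0.58 and 0.36. The replication genes had 0.40, with array medians of 0.43, 0.44, 0.41 and 0.35. The difference between the lists was not tested.

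**Figure D4:**
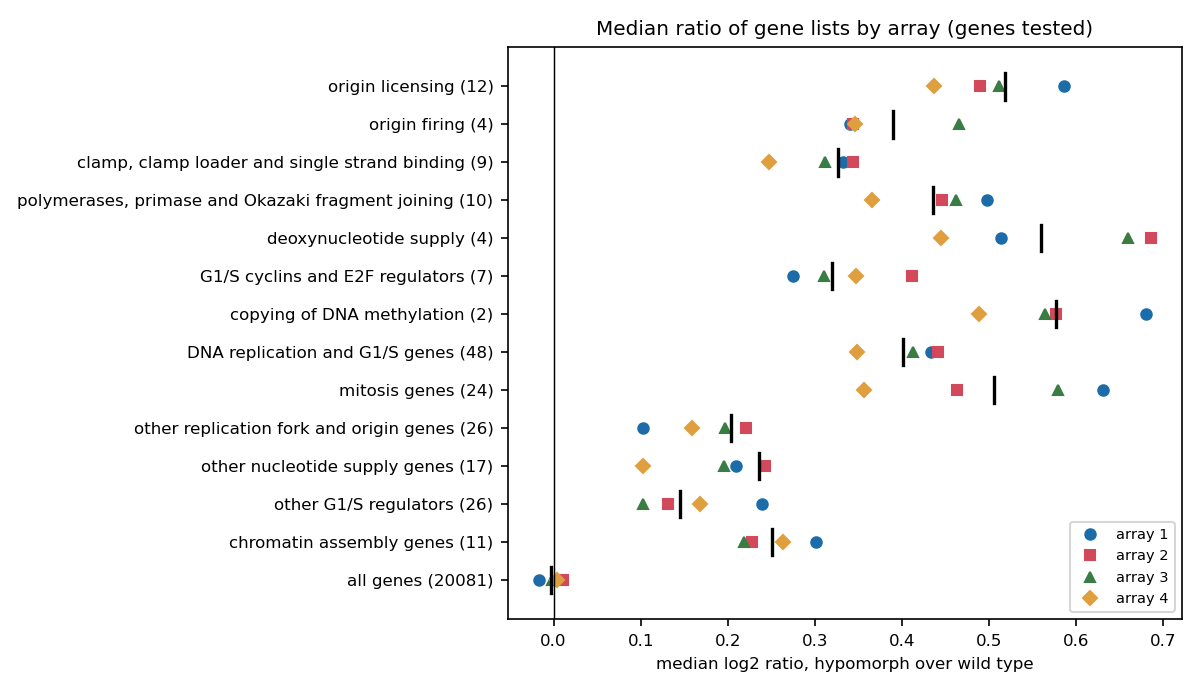
Median log2 ratio of hypomorph over wild type of each gene list on each array, with the median of the gene means as a black tick and the number of genes tested in brackets. By their ticks the mitosis list and the lists of replication genes lie furthest to the right, at 0.32 to 0.58, the other pathway lists lie nearer to 0, and all genes lie at 0.00.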

How the data were processed

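RNA of 4 hypomorph and 4 wild type lung pools was hybridised to 4 Agilent 2-colour arrays, with wild type in Cy3 (green) and hypomorph in Cy5 (red), per the labels. The deposited intensities of spots and local background came from the scanner software Agilent Feature Extraction, version 9.5.1 in the submitters' processing notes. Probe positions are in build mm8, per the file headers. A deposited log10 ratio of red over green was used only to check direction. The deposited log2 table equals the log2 ratio of the processed red over green signals (correlation 1 on each array), so its direction and scale are known; its medians were -0.0237, -0.0019, -0.0474 and -0.0239, so it is not median-centred.

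Background was corrected with normexp (offset 50) and arrays were normalized by loess (span 0.3, control spots at weight 0). Spots marked as outliers in either channel were left out, 2136 to 2219 per array, and 4 to 8 were saturated. Spots of a probe were averaged. Probes entered the test with values, and a signal well above background in either channel, on 3 or more of the 4 arrays. The mean log2 ratio was tested against 0 with limma 3.58.1 in R 4.3.3, with Benjamini-Hochberg adjustment over 30008 probes and a threshold of 0.05. Each array holds 1 pool of each genotype and is the replicate. Levels are log2 signals per channel after loess and Aquantile scaling. The fit was tested on simulated data. A gene is read by its brightest tested probe, so Mcm3 and Cdc6, whose brightest probes were marked on 3 arrays, are each read by another.

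Symbols are those of the array files. The genes and lists were chosen with earlier results of these data known, so counts and medians of a list carry no test of their own. Full values are given for the highest and lowest gene of each role and for genes whose probes differ, and Mcm5, Pcna, Orc2l, Gmnn, Rfc1 and further values were added after they had been seen. Other pathway genes are named by the smallest p, up to 4 a list, and the lower ones were named after their values were seen. Alternatives were the processed signals, the deposited log2 table, 2 other background settings, 3 other normalizations, 2 filters on dim probes, marked spots kept, an intensity trend with robust variance, a gene read by the mean of its probes, and each array left out.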

Additional observations from a re-analysis of the deposited data

Results flagged for a closer look

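For the 45 genes with values on all 4 arrays, and for the median of the genes, the arrays were checked for 1 far from the others, and 3 genes had a gap above Dixon's critical share of the range. Chance alone marks about 1 in 20 such groups. Orc6l had the widest gap, with array 1 at -0.29 and the other arrays between -0.01 and 0.02, and the gap was 0.901 of the range. For Dbf4 array 3 stood above the others at 0.60, with a gap of 0.871 of the range. For Prim1 array 1 stood below the others at 0.24, with a gap of 0.832 of the range. Dbf4 and Prim1 were above 0 on all arrays.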

How the results depend on the processing

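Across 16 alternatives run for each gene, 28 of the 41 called genes stayed called in each, and no called gene changed sign. The processed signals and the deposited table hold equal values, so the counts over alternatives include that analysis under both names. The other 13 lost the call in 33 of 656 values, outside Ccnd1 and Ccnd2 only with an array left out. Leaving out 1 array gave 28 to 40 genes higher, with 28 without replicate 2, where the higher calls over all genes fell to 648 from 2761. Without replicates 3 and 4 these were 909 and 1770. The median of the genes ranged from 0.367 to 0.433. Median centring put it at 0.639 with all genes at 0.130, and gave 47 genes higher, 8266 over all genes and 2 pathway genes lower. The dimmest tested probe of each gene, an alternative chosen after seeing the data, gave a median of 0.353 and 36 genes higher. The processed signals and the deposited table each gave 39 genes higher, 4 pathway genes lower and 1 differing probe pair. With an array left out, pathway genes higher ranged from 22 to 41 and lower from 1 to 9, and differing pairs from 0 to 6. Among genes without a call, Cdc7 turned above 0 with the processed signals and the deposited table (0.0192 each), scale normalization (0.0222), the mean of probes (0.0376) and median centring (0.211). With an array left out Cdc7 ranged from -0.0952 to 0.108, Orc6l from -0.0987 to 0.0049 and Rpa3 from -0.1845 to 0.0505, each turning above 0 only without replicate 1. With median centring Orc6l read 0.218, Rpa3 0.185 and Rfc2 0.280, and with the mean of probes Rfc2 read 0.0224. The cause was not tested. The test is itself paired, since each array holds 1 pool of each genotype, and no further block could be added. The number of arrays limits the precision, and the normexp offset compresses the ratios of dim probes.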
